A study of Mus musculus with 10 samples.

Results

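Exposure of brown adipocytes to BML-260 for 1 day was compared with exposure to DMSO, its solvent, for the same time. The comparison takes 4 of the 10 RNA-sequencing libraries of the series, the 2 labelled BML-260 at 1 day and the 2 labelled DMSO at 1 day, and every gene of the deposited count table. A filter on low counts left 15212 of its 24640 genes for testing. All 10 libraries came from cells labelled brown adipocytes of the C57BL/6 mouse strain. The other 6 hold cells given BML-260 for 3 days, DMSO for 3 days, or ISO, a name left unexpanded by the labels, at 1 day. BML-260 is sold as an inhibitor of the dual-specificity phosphatase encoded by Dusp22. Its dose, and whether the adipocytes were primary cells or a cell line, were absent from the sources read here. Nor do the labels tie the 2 libraries of a group to separate cultures or animals: p-values below cover only how far these libraries spread, and that spread may be technical. The question put to the comparison was which messenger RNAs had changed after 1 day of the compound.

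Brown adipocytes burn fatty acids in mitochondria and release the energy as heat through UCP1, a carrier in the inner mitochondrial membrane that lets protons flow back without making ATP. Noradrenaline normally switches this on through beta-adrenergic receptors and cyclic AMP, and the same signal raises transcription of Ucp1 and of genes for fat oxidation. Cells that meet reactive or protein-damaging compounds often respond through the transcription factor NRF2, which drives antioxidant and detoxifying enzymes, and through the integrated stress response, in which ATF4 drives amino acid supply, tRNA charging and genes such as Atf3 and Ddit3.

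The DMSO libraries held 17107063 and 18429606 counts over all genes, and the BML-260 libraries 17094354 and 19232978. Adipocyte markers were abundant in all 4, with 7 adipocyte markers summing to between 10690 and 14310 CPM, the usual scaling of counts to the library total. Fabp4 alone gave 6268 to 10560 CPM of it. In the test below 1 of the 7 rose with BML-260 and 4 fell. The 9 brown adipocyte markers summed to between 688 and 747 CPM, although Dio2 had at most 2 counts in any of the 4 libraries and was not tested. Of the 8 tested 3 rose and 2 fell. Markers of other cells were low where the count table held them. The 5 endothelial markers summed to 1.02 to 1.51 CPM and the 4 nerve markers to 6.18 to 8.76 CPM. Only 3 of 5 macrophage and leukocyte markers were in the count table, summing to 2.90 to 5.02 CPM. Of 4 skeletal muscle markers 2 were, summing to 0.106 to 0.646 CPM. Ptprc, Adgre1, Myod1 and Myog were absent from it and gave no value. Among defining markers, Cdh5 and Ckm had 0 counts in both BML-260 libraries, and 0 and 1 in the DMSO libraries. Markers of undifferentiated and of mural cells were present, and some of each fell with BML-260. They are given with the genes they moved with.

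At 1 day BML-260 changed many transcripts by small amounts. Of the 15212 genes tested 1417 rose, 9.32% of them, and 1311 fell, 8.62%, at an adjusted p under 0.05 in edgeR's quasi-likelihood test with Benjamini-Hochberg adjustment (17.9% in either direction). The median absolute log2 fold change of the changed genes was 0.27, and 84.3% of them changed by less than 0.5 on the log2 scale. A log2 fold change of at least 1 was reached by 98 changed genes, 0.644% of those tested, of which 27 rose and 71 fell. Both groups' libraries were separate for 2723 of the 2728 changed genes, but the same held for 56% of all genes tested. Leaving out 1 library moved this total by more than 1.5 times in 3 cases, to 1235 without the DMSO library of replicate 2, 1748 without the BML-260 library of replicate 1 and 1810 without that of replicate 2. DESeq2 gave 1025 raised and 813 lowered genes. The authors' deposited table for the same comparison lists 592 genes with a log2 fold change above 0 and 544 with a negative one, and 1132 of them also changed in the same direction in edgeR.

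**Figure D1:**
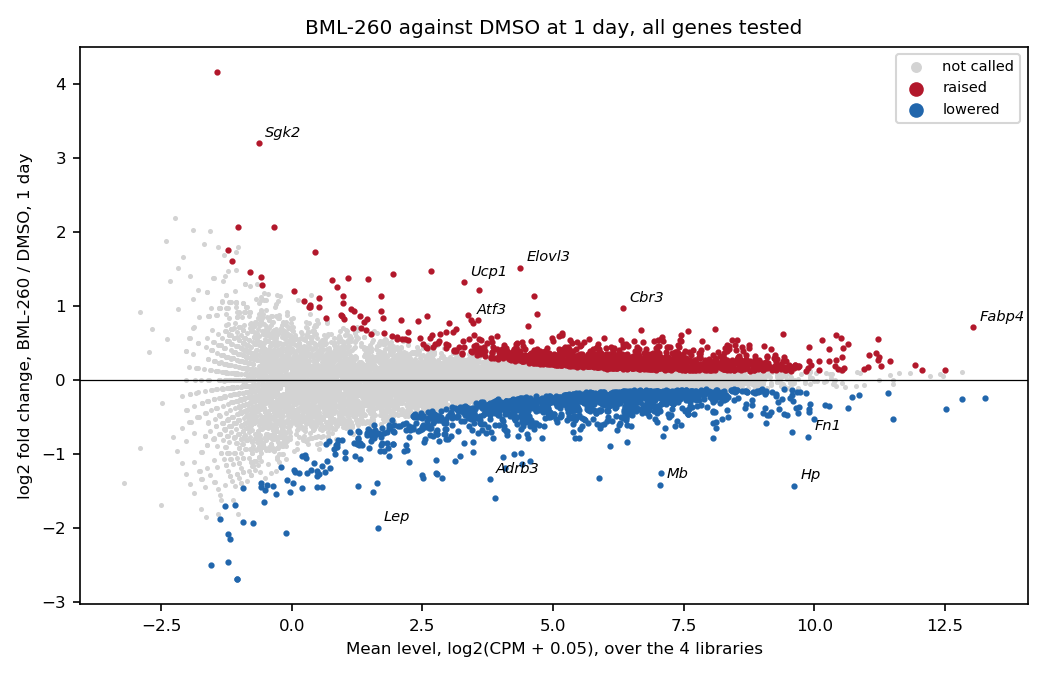
Each point is 1 of the 15212 genes tested, with its mean level over the 4 libraries at 1 day on the x axis, as log2 of CPM plus a small constant, and its log2 fold change of BML-260 over DMSO on the y axis. The 1417 raised and 1311 lowered genes lie in a narrow band around 0, and genes that fell by more than 1 on the log2 scale outnumber those that rose as far by 71 to 27.

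Among genes of at least 10 CPM the most raised were Elovl3, the fatty acid elongase of brown fat, and Ucp1. Elovl3 stood at 11.8 and 9.61 CPM with DMSO and at 33.1 and 28.0 CPM with BML-260, a log2 fold change of 1.52 (SE 0.11, adjusted p = 1.69e-10). Ucp1 stood at 6.05 and 5.10 CPM with DMSO and at 15.3 and 12.6 CPM with BML-260, a log2 fold change of 1.32 (SE 0.13, adjusted p = 5.80e-08). Neither gene's groups overlapped, a condition of their choice, and Ucp1 remained a transcript of low abundance in both groups. The deepest falls were those of Hp, which encodes the haemoglobin-binding plasma protein haptoglobin, and of Mb, which encodes the oxygen store myoglobin. Hp fell from 1104 and 1193.7 CPM to 384 and 467 CPM, a log2 fold change of -1.43 (SE 0.07, adjusted p = 3.02e-14). Mb fell from 189 and 197 CPM to 67.4 and 76.6 CPM, a log2 fold change of -1.42 (SE 0.06, adjusted p = 1.13e-15), the smallest p of the 15212 genes tested. In GENCODE M21 on GRCm38, Ucp1 lies at chr8:83290352-83298452, Elovl3 at chr19:46131897-46135694, Hp at chr8:109575128-109579172 and Mb at chr15:77015487-77050670.

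The other 10 genes in the raised group of 12 were Cbr3, Acox2, Kalrn, Extl1, Atf3, Plscr2, Cox6a2, Fabp4, Steap1 and Stbd1. Cbr3, a carbonyl reductase, rose from 54.7 and 55.2 CPM to 101 and 113 CPM (log2 fold change 0.97, SE 0.06). Fabp4, the main fatty acid binding protein of fat cells and among the most abundant transcripts, rose from 6517 and 6268 CPM to 10310 and 10560 CPM (log2 fold change 0.71, SE 0.04). Of the rest, the peroxisomal oxidase Acox2 had a log2 fold change of 0.89, the exchange factor Kalrn 0.87, the glycosyltransferase Extl1 0.80, the scramblase Plscr2 0.77, the metalloreductase Steap1 0.68 and the glycogen-binding Stbd1 0.67. The other lowered genes of 12 were Adrb3, Apcdd1, Sncg, Prtn3, Adam11, Rasd1, Sfrp2, Mgp, Angpt1 and Orm1. Adrb3, the beta3-adrenergic receptor of fat cells, fell from 18.98 and 20.6 CPM to 7.34 and 8.18 CPM (log2 fold change -1.35, SE 0.11). Sncg, the synuclein of adipocytes, fell from 79.9 and 89.0 CPM to 31.0 and 36.2 CPM (log2 fold change -1.33, SE 0.07). The remaining falls ran from -1.33 for the Wnt inhibitor Apcdd1 to -1.01 for the acute phase protein Orm1, with -1.10 for Rasd1, a small GTPase, and -1.03 for Angpt1, a ligand of the endothelial receptor TEK. For all 24 genes the libraries of the groups were separate because the rule that chose them required it. The same held for 56% of all genes tested. Exons of Elovl3, Mb, Adrb3, Cox6a2, Sfrp2 and Angpt1 overlap those of other annotated genes, and since the labels and notes state no strand setting for the counting, part of their counts may belong to the neighbour. The same holds for 51 of the 203 genes named in the text that have an annotation, among them Fn1, Cebpa, Ddit3 and Ndufb5. Orm1 has near-identical copies in its family, so its counts may be shared among them. Of the 10 most abundant changed genes that moved by 0.5 or more on the log2 scale, 4 are predicted loci, whose reads may be shared with other genes and whose values are uncertain. Gm13341 had a log2 fold change of -0.53, and Gm10053, Gm10116 and Gm13910 had 0.57, 0.60 and 0.54. The predicted gene 4931406C07Rik, among the 10 genes of smallest p, had a log2 fold change of 0.69.

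**Figure D2:**
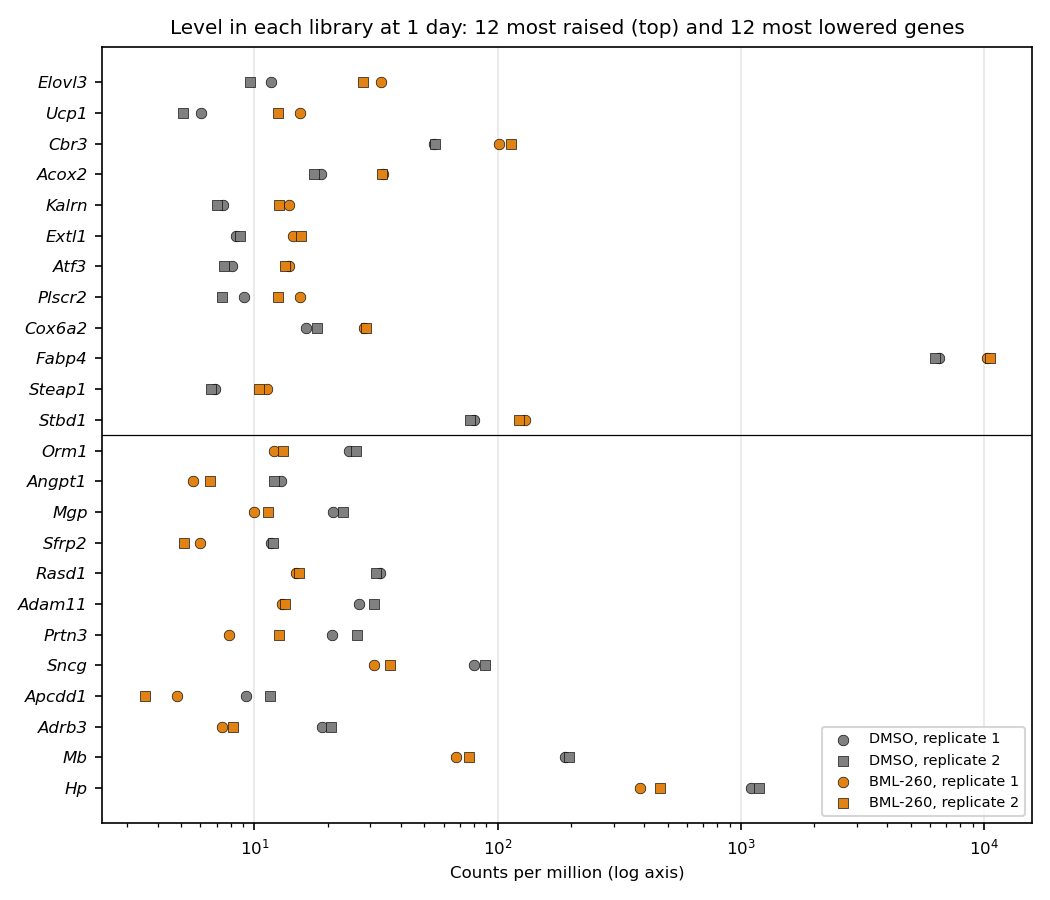
Level in CPM, on a log axis, of the 12 most raised and 12 most lowered genes that reach 10 CPM in either group, with 1 point for each of the 4 libraries at 1 day (grey DMSO, orange BML-260; circles replicate 1, squares replicate 2). Orange and grey points are separate for every gene, which the rule that chose the genes required. Levels run from Apcdd1 at 3.54 CPM to Fabp4 at 10560 CPM.

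Genes were then read in lists by function, each list described by how many of its tested members rose or fell, to be set against 9.32% raised and 8.62% lowered among all genes and a median log2 fold change of -0.001. A trend with transcript length ran through the comparison and touches some lists. Genes were split into 5 equal classes by exon length: the shortest class, with a median of 840 bases, had a median log2 fold change of 0.07, and the longest, with a median of 5485 bases, one of -0.06. The share raised went from 14.7% in the shortest to 4.59% in the longest class, and the share lowered from 3.46% to 17.7%. Raised genes had a median exon length of 1925.5 bases and lowered genes of 3583 bases, against 2507 bases for all genes with a length. The trend was steepest in the BML-260 library of replicate 2. In a further fit, chosen after the data were seen, a smooth trend on length was removed from each library; 1380 genes rose and 1147 fell in it. Its counts are given beside the lists they bear on most. Counts of 3 or fewer members in a direction moved by 1 or 2 genes under many single alternatives, that fit included, and carry little weight. Length and treatment cannot be told apart as sources of what that fit removes.

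**Figure D3:**
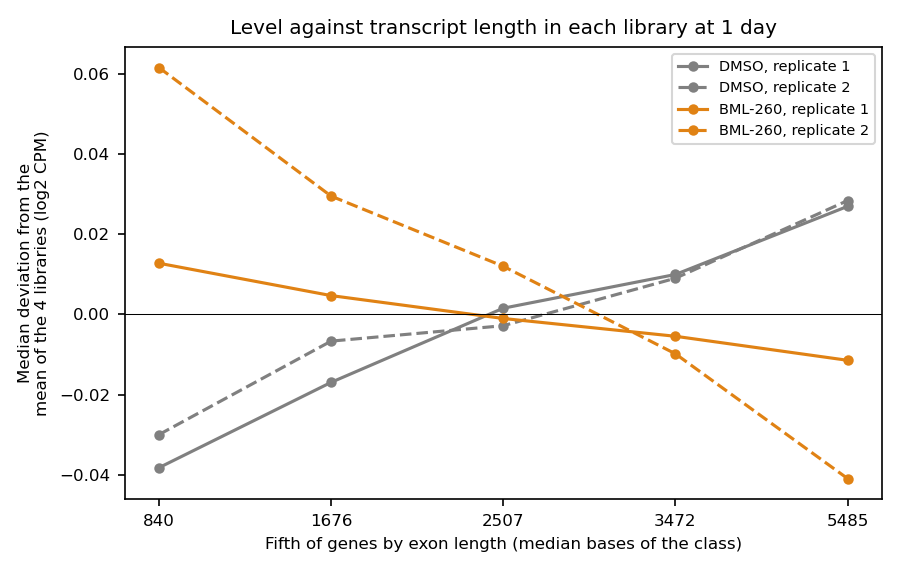
Median deviation from the mean of the 4 libraries at 1 day, in log2 CPM, for genes in 5 equal classes by exon length (x axis, median bases of each class), with 1 line per library. The BML-260 library of replicate 2 falls from 0.06 in the shortest to -0.04 in the longest class, that of replicate 1 from 0.01 to -0.01, and both DMSO libraries rise from about -0.03 to 0.03.

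**Figure D4:**
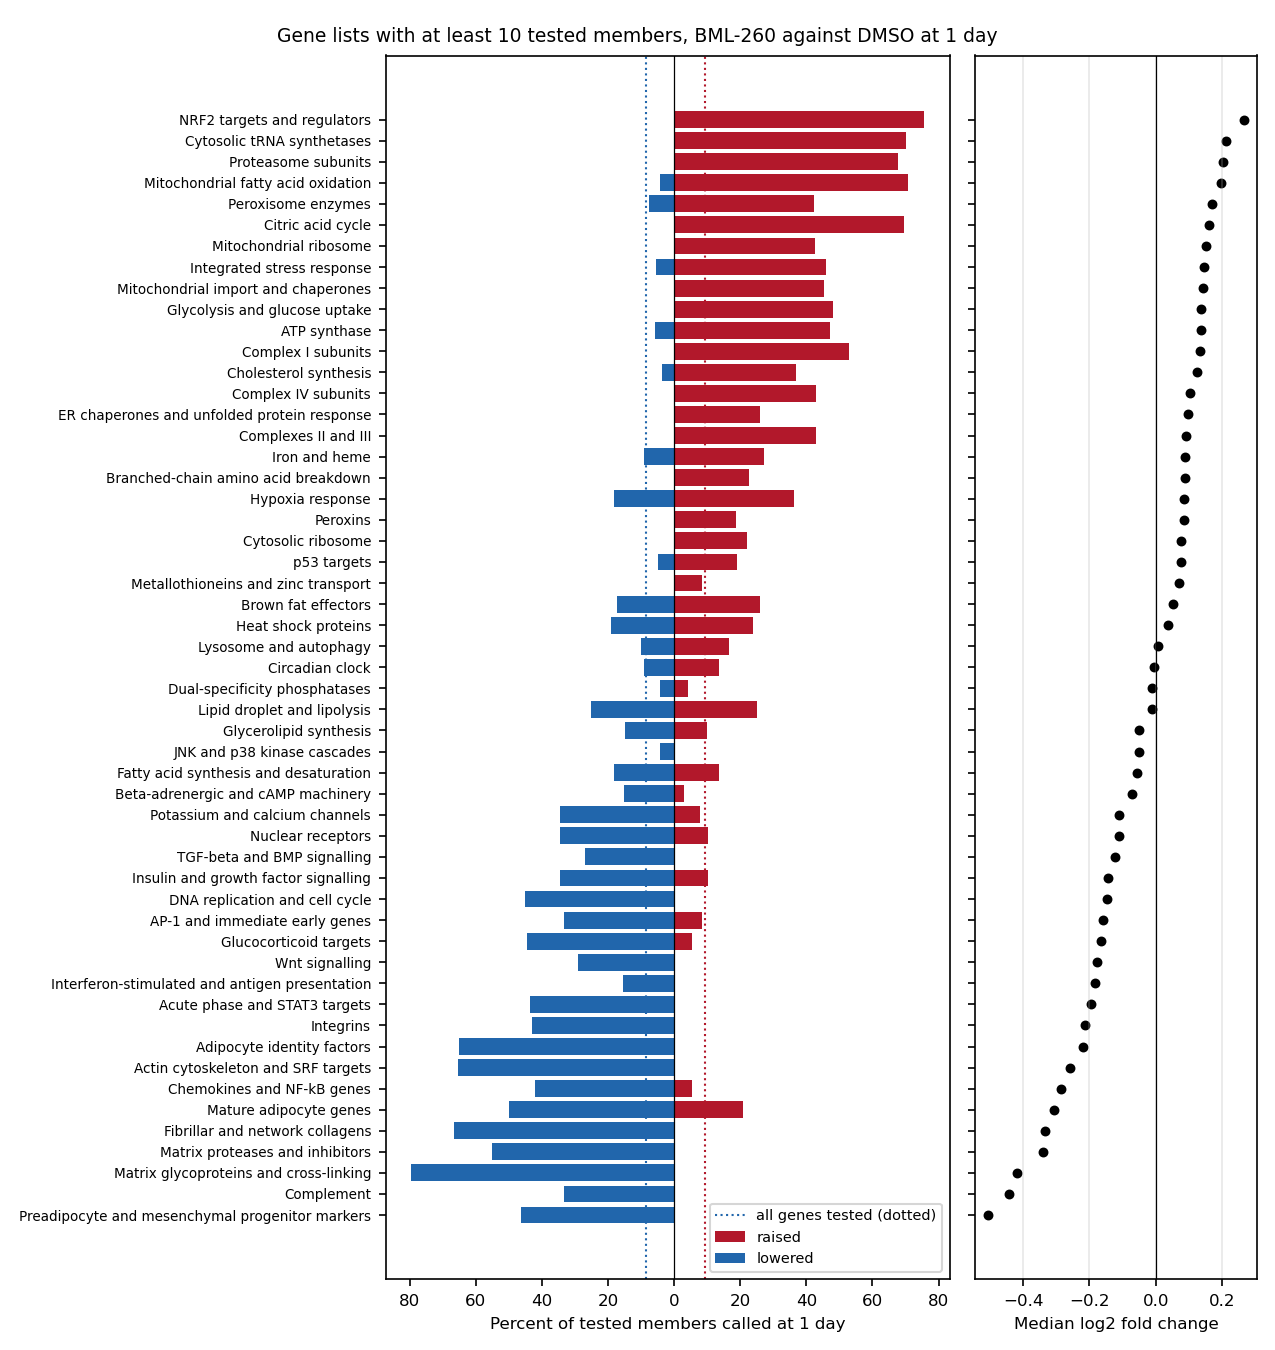
Left, percent of tested members raised (red) and lowered (blue) at 1 day for each list with at least 10 tested members, with dotted lines at the 9.32% raised and 8.62% lowered among all genes; right, the median log2 fold change of the list. Antioxidant, tRNA synthetase, proteasome and fat oxidation lists lie at the top and matrix, complement and progenitor marker lists at the bottom.

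Among lists with at least 10 tested members, that of antioxidant and detoxifying genes had the highest median. Of 45 tested NRF2 targets and regulators 34 rose and 0 fell, with a median log2 fold change of 0.27; 28 to 32 rose when 1 library was left out. Cbr3 had the smallest p of the list. Hmox1, the heme oxygenase that NRF2 induces, rose from 525 and 535 CPM to 798 and 835 CPM (log2 fold change 0.62, SE 0.06, adjusted p = 1.73e-08). Srxn1, which repairs oxidised peroxiredoxins, rose from 114 and 104 CPM to 162 CPM in both libraries (log2 fold change 0.57, SE 0.05, adjusted p = 1.33e-08). Among glutathione transferases Gsta3 stood at 3.49 and 3.22 CPM with DMSO and at 8.76 and 9.82 CPM with BML-260 (log2 fold change 1.47, SE 0.17), and Gsta4 had a log2 fold change of 0.64. Smaller rises were those of Gclm, a subunit of the enzyme that limits glutathione synthesis, at 0.30, of Me1, which makes NADPH, at 0.42, of Cbr1 at 0.52 and of the exporter Abcc4 at 0.52. The ferritin chains Ftl1 and Fth1 rose by 0.55 and 0.27 and Blvrb, which reduces biliverdin, by 0.34, all on the log2 scale; ferritin genes have many processed copies, and no source read here states how reads matching several places were counted. Osgin1, another member, did not pass the test, with a log2 fold change of -0.12 (SE 0.10).

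NRF2 with a small MAF protein binds the antioxidant response element. The letters TGANTCAGC, searched on both strands from 250 bases before to 50 bases after the gene start in RefSeq promoters on GRCm38.p6, were found for 5 of the 38 NRF2 list genes that had such a window (13.2%) and in 1.19% of all 32851 promoters. They were also found for 2 of 22 genes of the ER chaperone list (9.09%). Raised genes among the 5 were Gstp1, Me1, Prdx1 and Srxn1, and the other was Osgin1. The pattern contains TGANTCA, the letters of the AP-1 element, which 7.81% of promoters hold. Here and below, list shares count genes with a match in any of their windows, while shares of promoters count single windows. Counted by gene, TGANTCAGC was found for 1.40% and TGANTCA for 6.28% of the 9896 tested genes with a window. Both raised genes of smallest p with a match are shown, 5′ to 3′ on the strand of the gene, with the matched letters in capitals. The Srxn1 window is chr2:152105274-152105573 on the plus strand with its match beginning 45 bases before the start, and the Me1 window is chr9:86695865-86696164 on the minus strand with its match beginning 6 bases before the start.
Srxn1: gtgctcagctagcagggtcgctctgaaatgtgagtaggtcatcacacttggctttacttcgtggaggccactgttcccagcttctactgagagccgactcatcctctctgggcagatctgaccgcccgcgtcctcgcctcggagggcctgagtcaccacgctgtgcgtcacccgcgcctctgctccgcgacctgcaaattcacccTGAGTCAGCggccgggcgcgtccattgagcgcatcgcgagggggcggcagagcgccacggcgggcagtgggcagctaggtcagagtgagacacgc
Me1: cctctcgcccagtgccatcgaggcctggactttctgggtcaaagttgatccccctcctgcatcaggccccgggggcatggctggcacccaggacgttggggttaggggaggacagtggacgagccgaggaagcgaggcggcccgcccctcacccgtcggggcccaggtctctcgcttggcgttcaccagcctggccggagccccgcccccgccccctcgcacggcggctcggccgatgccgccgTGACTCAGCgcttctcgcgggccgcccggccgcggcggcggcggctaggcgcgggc

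Part of the integrated stress response list also rose. Of 37 tested members 17 rose, 2 fell and the others did not pass, with a median log2 fold change of 0.15. Atf3, a transcription factor induced by stress, rose from 8.09 and 7.52 CPM to 13.9 and 13.3 CPM (log2 fold change 0.80, SE 0.11, adjusted p = 9.50e-06). Ppp1r15a, which restores translation by directing dephosphorylation of eIF2 alpha, rose from 142 and 139 CPM to 204 and 205 CPM (log2 fold change 0.54, SE 0.05). Ddit3, which encodes CHOP, rose from 300 and 298 CPM to 415 and 413 CPM (log2 fold change 0.47, SE 0.04). Groups were separate for all 3 genes, as for 2723 of the 2728 changed genes, and for Atf3 the rule of choice required it. Further rises were those of the pseudokinase Trib3 at 0.39, of Asns, the asparagine synthetase, at 0.36 and of Atf4 itself at 0.30 on the log2 scale. The hormone Fgf21, a target of ATF4 and PPAR alpha, stood at 1.05 and 1.23 CPM with DMSO and 3.35 and 2.64 CPM with BML-260 (log2 fold change 1.37, SE 0.30, adjusted p = 0.00188).

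Most enzymes that charge transfer RNAs with amino acids rose: 14 of 20 rose and 0 fell, at a median log2 fold change of 0.21, and 9 rose without the DMSO library of replicate 2. Wars, the tryptophanyl enzyme, rose from 109 and 101 CPM to 157 and 146 CPM (log2 fold change 0.53, SE 0.05, adjusted p = 8.00e-08). Eprs, Nars, Gars and Iars had log2 fold changes of 0.31, 0.31, 0.30 and 0.28. Within windows of the same kind the letters TGATGCAA, which ATF4 and C/EBP proteins bind in amino acid response elements, occurred for 4 of 12 synthetase genes (33.3%; Aars, Iars, Tars and Yars), for 7 of 31 integrated stress response genes (22.6%) and in 0.895% of all promoters. All 4 synthetases with the letters rose, although Aars and Tars, with log2 fold changes of 0.15 and 0.17, did not pass the test without the BML-260 library of replicate 1 (0.11 and 0.14) or without the DMSO library of replicate 2 (0.14 and 0.16). Of the 7 stress response genes 4 rose, Atf3, Chac1, Fgf21 and Nupr1, and Slc1a4, Slc7a11 and Vldlr hold the letters but did not rise. Chac1 (log2 fold change 0.36) did not pass without the BML-260 library of replicate 2 (0.21) or the DMSO library of replicate 1 (0.29). The windows of the raised gene of smallest p in each list are shown with the match in capitals, read here on the opposite strand as TTGCATCA. That of Atf3 is chr1:191183284-191183583 on the minus strand, with a match beginning 110 bases before the start, and that of Iars is chr13:49681880-49682179 on the plus strand, with a match beginning 7 bases after the start.
Atf3: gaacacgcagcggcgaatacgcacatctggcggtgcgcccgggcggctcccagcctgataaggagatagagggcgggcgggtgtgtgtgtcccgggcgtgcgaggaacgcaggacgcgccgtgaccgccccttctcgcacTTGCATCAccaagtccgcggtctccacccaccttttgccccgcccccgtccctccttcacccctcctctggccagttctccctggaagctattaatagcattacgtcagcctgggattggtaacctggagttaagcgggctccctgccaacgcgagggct
Iars: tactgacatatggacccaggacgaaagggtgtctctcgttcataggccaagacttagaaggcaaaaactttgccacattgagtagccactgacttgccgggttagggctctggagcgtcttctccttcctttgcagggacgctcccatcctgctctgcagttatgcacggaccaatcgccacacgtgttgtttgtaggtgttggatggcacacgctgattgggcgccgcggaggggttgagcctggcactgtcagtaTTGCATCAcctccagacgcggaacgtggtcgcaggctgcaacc

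Chaperones of the endoplasmic reticulum moved less. Of 27 tested members 7 rose and 0 fell, at a median log2 fold change of 0.10, and 4 rose without the DMSO library of replicate 2. Hspa5, which encodes the chaperone BiP, rose from 1388 and 1267 CPM to 1915 and 1812 CPM (log2 fold change 0.49, SE 0.05, adjusted p = 1.70e-07). Atf6, a sensor of unfolded protein, and Derl1, part of the export route for misfolded protein, rose by 0.27 and 0.23 on the log2 scale. The ER stress response element, searched in its full form on both strands, was found for 8 of 22 genes of the list (36.4%) and in 0.119% of all promoters; of those 8 only Hspa5, Hsp90b1 and Pdia6 rose, and Calr, Canx, Creld2, Dnajc3 and Syvn1 did not. Hsp90b1 (log2 fold change 0.19) did not pass without the DMSO library of replicate 2 (0.14). The Hspa5 window, at chr2:34771840-34772139 on the plus strand, has its match in capitals beginning 65 bases before the start. It also holds the antioxidant letters TGANTCAGC, left in lower case as tgagtcagc.
Hspa5: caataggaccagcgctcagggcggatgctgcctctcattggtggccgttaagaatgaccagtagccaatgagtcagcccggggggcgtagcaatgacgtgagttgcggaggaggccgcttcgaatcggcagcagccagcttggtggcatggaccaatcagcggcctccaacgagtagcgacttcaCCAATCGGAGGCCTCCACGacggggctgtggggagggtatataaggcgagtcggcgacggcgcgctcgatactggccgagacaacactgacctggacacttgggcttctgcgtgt

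In all, 13 patterns were searched over 9 lists, and the 3 shown were kept after these counts had been seen, so their shares are a description without a test. Counted by gene over the 9896 tested genes with a window, TGATGCAA was found for 0.748% and the ER stress response element for 0.141%. The antioxidant form shown replaced TGACNNNGC after its match in the Srxn1 window had been seen. Genes named here for holding a pattern were chosen after the matches were seen. Of the others, the looser TGACNNNGC was found for 31.6% of NRF2 list genes, 29.0% of integrated stress response genes and 27.3% of ER chaperone genes against 12.4% of all promoters and a second loose form for 31.6% against 13.0%. The strict AP-1 letters TGACTCA were found for 21.1% of NRF2 list genes against 5.20% of promoters. The strict and the looser form of the nuclear respiratory factor element were found most often for genes of complexes II and III, 11.1% and 33.3% of the 9 with a window, against 0.971% and 4.60% of promoters; for mitochondrial ribosome genes the shares were 4.55% and 18.2%, and the looser form was found for 24.0% of proteasome genes and 25.0% of synthetase genes. The cyclic AMP response element TGACGTCA was found for 2 of the 9 genes of complexes II and III (22.2%) and for 3.03% of mitochondrial ribosome genes, against 1.79% of promoters. The strict and the looser PPAR element and the letters CCCATTGGT were found for 0% of fat oxidation genes against 0.0396%, 0.381% and 0.517% of promoters.

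Most proteasome genes also rose. Of 31 proteasome subunits 21 rose and 0 fell, at a median log2 fold change of 0.20, and 11 rose without the DMSO library of replicate 2. Psmb5, the subunit with chymotrypsin-like activity, rose from 109 and 110 CPM to 142 and 146 CPM (log2 fold change 0.39, SE 0.05), and the ATPase Psmc6 from 167 and 151 CPM to 206 and 198 CPM (0.35, SE 0.05). Of 30 lysosome and autophagy genes 5 rose and 3 fell, the latter near the background share and 1 without the BML-260 library of replicate 1. Among those raised were Gabarapl1, an autophagosome protein, at a log2 fold change of 0.55, the cargo receptor Sqstm1 at 0.33 and the protease Ctsl at 0.34. Of 21 p53 targets 4 rose and 1 fell; Gadd45a, which is induced by DNA damage and by other stress, rose from 53.5 and 47.8 CPM to 77.4 and 72.5 CPM (log2 fold change 0.57, SE 0.06), and the count of raised p53 targets was 2 without the DMSO library of replicate 2.

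Brown fat effectors did not move as a block. Of 23 tested 6 rose and 4 fell, with a median log2 fold change of 0.05. Beside Elovl3, Ucp1 and Fgf21, Ppara, the fatty acid receptor that drives oxidation genes, rose from 101 and 95.8 CPM to 126 and 125 CPM (log2 fold change 0.35, SE 0.05, adjusted p = 9.76e-06). Cidea, a lipid droplet protein typical of brown fat, rose from 128 and 130 CPM to 144 and 167 CPM (log2 fold change 0.27, SE 0.06, adjusted p = 0.00100), a call lost without the BML-260 library of replicate 2 (0.16, adjusted p = 0.075). The potassium channel Kcnk3 fell from 214 and 218 CPM to 152 and 172 CPM (log2 fold change -0.41, SE 0.06), and the coactivator Ppargc1b fell by 0.32 on the log2 scale. Ppargc1a, the coactivator most linked to heat production, did not pass the test, with 49.7 and 51.0 CPM against 51.4 and 50.1 CPM and a log2 fold change of 0.01 (SE 0.06) whose sign turned in 3 of 12 alternatives.

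Many transcription factors of fat cell identity fell. Of 20 tested 0 rose and 13 fell, with a median log2 fold change of -0.22; 8 fell without the BML-260 library of replicate 2, and 8 without the DMSO library of replicate 2. Cebpa fell from 355 and 406 CPM to 246 and 292 CPM (log2 fold change -0.50, SE 0.06, adjusted p = 1.67e-06). Nfia, a factor of the brown fat program, fell from 88.3 and 82.6 CPM to 62.1 and 60.1 CPM (log2 fold change -0.48, SE 0.06). Falls of the partner of PPAR gamma Tle3, of the lipogenic factor Srebf1 and of Ebf1 were -0.44, -0.39 and -0.25. Pparg itself, the master regulator of the lineage, stood at 420 and 406 CPM with DMSO and 370 and 376 CPM with BML-260 (log2 fold change -0.15, SE 0.04, adjusted p = 0.0167), and it no longer passed without either BML-260 library or without the DMSO library of replicate 1 (adjusted p of 0.11, 0.063 and 0.11 in that order).

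Genes of the mature fat cell split. Of 24 tested 5 rose and 12 fell, with a median log2 fold change of -0.31. The rise of Fabp4 stood against falls of the secreted proteins Adipoq, Cfd and Lep. Adipoq, which encodes adiponectin, fell from 1378 and 1402 CPM to 1025 and 1153 CPM (log2 fold change -0.35, SE 0.06, adjusted p = 1.01e-04). Cfd, which encodes adipsin, fell from 566 and 622 CPM to 414 and 460 CPM (log2 fold change -0.44, SE 0.05). Lep, which encodes leptin, stood at 6.29 and 3.60 CPM with DMSO and at 0.999 and 1.43 CPM with BML-260 (log2 fold change -2.00, SE 0.27, adjusted p = 6.16e-06), with 27 counts or fewer in each BML-260 library. Acvr1c, the fat cell activin receptor ALK7, fell from 193 and 200 CPM to 123 and 131 CPM (log2 fold change -0.63, SE 0.05), and Retn, which encodes resistin, had a log2 fold change of -0.63 (SE 0.10). In bulk samples fewer cells of a type and less RNA per cell cannot be told apart.

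The beta-adrenergic and cyclic AMP machinery changed little beyond Adrb3: of 33 tested 1 rose and 5 fell, at a median log2 fold change of -0.07, and 3 fell without the BML-260 library of replicate 1 or without the DMSO library of replicate 2. Rgs2, which limits G protein signalling, fell from 130 and 131 CPM to 104 and 106 CPM (log2 fold change -0.31, SE 0.06). The adenylyl cyclase Adcy7 stood at 4.54 and 4.24 CPM with DMSO and 2.35 and 2.16 CPM with BML-260 (log2 fold change -0.96, SE 0.22, adjusted p = 0.00311).

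Part of the nuclear genes for mitochondrial proteins rose, fewer than the unchanged ones in both lists that follow. The transcripts of the mitochondrial genome that could be tested, 4 of 15 listed, fell. Of 75 mitochondrial ribosome genes 32 rose and 0 fell (median log2 fold change 0.15), and of 31 genes of mitochondrial import and chaperones 14 rose and 0 fell (0.14). Hspd1 and Hspe1, the matrix chaperonin pair, rose by 0.44 each on the log2 scale: Hspd1 from 866 and 741 CPM to 1122 and 1065 CPM, and Hspe1 from 216 and 202 CPM to 281 and 284 CPM. Dnaja3, a partner of matrix HSP70, rose from 293 and 266 CPM to 391 and 376 CPM (0.46, SE 0.05), and the matrix protease Lonp1 rose by 0.26. Mrpl15 and Mrps30 rose by 0.36 and 0.43. The mitochondrial ribosome count was 17 and 14 without the BML-260 library of replicate 1 and of replicate 2, 11 without the DMSO library of replicate 2 and 20 in DESeq2. For import and chaperones it was 7 without the BML-260 library of replicate 2, 6 without the DMSO library of replicate 2, and 9 in each of 3 alternatives, namely upper-quartile scaling, DESeq2 and a fit of the compared groups alone.

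Subunits of the respiratory chain rose by similar or slightly smaller amounts, and the raised counts of these lists dropped with the length trend removed. In that fit the counts of the 2 lists above dropped too, to 25 mitochondrial ribosome genes and 10 import and chaperone genes. Of 36 complex I subunits 19 rose and 0 fell (median log2 fold change 0.13), with Ndufa5 at 155 and 150 CPM against 182 and 190 CPM (0.28, SE 0.05) and Ndufb5 at 0.25. Their median exon length was 810 bases, and 11 rose with the length trend removed. Of 14 subunits of complexes II and III 6 rose and 0 fell, with the complex III core protein Uqcrc2 at 0.31 and the electron carrier Cycs at 0.35. Of 14 complex IV subunits 6 rose and 0 fell, and 2 rose with the length trend removed. Cox6a2, the heart and muscle form of a complex IV subunit that brown fat also uses, stood apart in this list, with 16.4 and 18.1 CPM against 28.3 and 28.9 CPM (log2 fold change 0.73, SE 0.09, adjusted p = 6.55e-07). Of 17 ATP synthase genes 8 rose and 1 fell, with Atp5c1 at 0.21; 4 rose with the length trend removed and 4 in a fit of the compared groups alone. Without the BML-260 library of replicate 2 the raised counts were 9, 2 and 3 for complex I, complex IV and ATP synthase, and without the DMSO library of replicate 2 they were 8, 1 and 2. The cytosolic ribosome, with a median exon length of 777.5 bases, had 16 of 73 genes raised and 0 lowered (median 0.08), and 5 raised with the length trend removed (median 0.02). Rps27a had a log2 fold change of 0.23, and ribosomal protein genes have many processed copies. That count was 8 without either BML-260 library, 6 and 4 without the DMSO library of replicate 1 and of replicate 2, and 8 in a fit of the compared groups alone.

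Of 15 listed mitochondrially encoded genes only 4 were in the count table, so the mitochondrial genome was covered in part. All 4 were tested and fell, with a median log2 fold change of -0.60. Exons of mt-Co3 overlap those of mt-Atp6, and exons of mt-Nd5 those of mt-Nd6. mt-Nd3, a complex I subunit, fell from 336 and 341 CPM to 178 and 214 CPM (log2 fold change -0.79, SE 0.07, adjusted p = 1.93e-08). mt-Co3, a complex IV subunit and among the most abundant transcripts, fell from 8013 and 7788 CPM to 6184 and 7025 CPM (log2 fold change -0.26, SE 0.05), and its value was -0.17 without the BML-260 library of replicate 1. The ribosomal RNA mt-Rnr1 stood at 8.33 and 7.95 CPM against 2.88 and 3.54 CPM (log2 fold change -1.33, SE 0.20). mt-Nd5 had the weakest call (-0.42, SE 0.13, adjusted p = 0.0273), which was lost in DESeq2 (adjusted p = 0.24) and without the BML-260 library of replicate 1 (0.40), the DMSO library of replicate 1 (0.077) or that of replicate 2 (0.16).

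Most tested genes of fat oxidation and the citric acid cycle rose. Of 24 genes of mitochondrial fatty acid oxidation 17 rose and 1 fell, at a median log2 fold change of 0.20, and 9 rose without the DMSO library of replicate 2. Hadha and Hadhb, the subunits of the trifunctional protein, stood at 1325 and 1244 CPM against 1739 and 1719.5 CPM (log2 fold change 0.43, SE 0.04) and at 75.0 and 71.1 CPM against 99.2 and 100.4 CPM (0.45, SE 0.06). Decr1 and Eci1, which handle unsaturated fatty acids, rose by 0.41 and 0.34. Of 23 citric acid cycle genes 16 rose and 0 fell, with a median of 0.16, and 10 rose without the DMSO library of replicate 2. Pdhb, a subunit of pyruvate dehydrogenase, rose from 1100.8 and 1029 CPM to 1416.5 and 1421 CPM (log2 fold change 0.41, SE 0.05), and its partner subunit Dld by 0.32. Branched-chain amino acid breakdown had 5 of 22 genes raised and 0 lowered, among them Bckdhb at 0.39 and Dbt at 0.31, both of the complex that commits these amino acids to oxidation, and 3 raised without the DMSO library of replicate 2. Among peroxisomal enzymes 11 of 26 rose and 2 fell. Acox2 rose from 18.8 and 17.6 CPM to 33.8 and 33.6 CPM and catalase, Cat, rose by 0.27 on the log2 scale, while the transporter Abcd2 fell from 7.68 and 7.03 CPM to 3.82 and 4.38 CPM (-0.84, SE 0.17).

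Lipid storage genes went both ways, with 5 of 20 raised and 5 lowered. The droplet coat Plin2 rose from 445 and 436 CPM to 594 and 613 CPM (log2 fold change 0.45, SE 0.04), and Plin5, which docks droplets to mitochondria, rose by 0.36. Plin4, the coat of white fat droplets, fell by 0.38 and Pnpla3, a lipase relative that follows lipogenesis, by 0.38. The count lowered was 3 in DESeq2, without the BML-260 library of replicate 1 and without the DMSO library of replicate 2. Among 22 genes of fatty acid synthesis and desaturation 3 rose and 4 fell. Fasn, the fatty acid synthase, fell from 1798 and 1845 CPM to 1396 and 1393 CPM (log2 fold change -0.39, SE 0.05). Glycerolipid synthesis had 2 of 20 genes raised and 3 lowered, near the background share, with Acsl4 at 0.31, Gpam at -0.24 and Dgat2 at -0.26.

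Sterol synthesis and glucose use leaned upwards, and hypoxia response genes went both ways. Of 27 genes of cholesterol synthesis 10 rose and 1 fell, at a median log2 fold change of 0.12, and 5 rose without the DMSO library of replicate 2. Sqle, which oxidises squalene, rose from 149 and 130 CPM to 208 and 180 CPM (log2 fold change 0.47, SE 0.07), and Lss, the next enzyme, by 0.40. Of 27 genes of glycolysis and glucose uptake 13 rose and 0 fell (median 0.14), with 7 raised without the DMSO library of replicate 2. Gpi1, which interconverts the sugar phosphates of glucose and fructose, rose from 1879.9 and 1857 CPM to 2334 and 2370.3 CPM (0.33, SE 0.05). Of 22 hypoxia response genes 8 rose (36.4%) and 4 fell (18.2%), both above the background shares. Ero1l, an oxidase of disulfide formation, rose from 2065 and 1794 CPM to 2963 and 2717 CPM (0.56, SE 0.06) and Ndrg1 by 0.45, while Mb, also in this list, fell. The hypoxia count raised was 3 without the DMSO library of replicate 2. The count lowered was 2 without that library, without either BML-260 library, and in DESeq2.

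Most of the extracellular matrix genes tested fell. Of 44 tested matrix glycoprotein and cross-linking genes 0 rose and 35 fell, at a median log2 fold change of -0.42, and 32 fell with the length trend removed. Fn1, which encodes fibronectin, fell from 1157 and 1221 CPM to 726 and 671 CPM (log2 fold change -0.77, SE 0.05, adjusted p = 7.04e-12). Fbn1, the microfibril protein fibrillin, fell from 173 and 175 CPM to 107 and 98.6 CPM (-0.76, SE 0.05). Hspg2, which encodes perlecan, fell from 612 and 685 CPM to 444 and 421 CPM (-0.59, SE 0.05). Each had separate groups, as had 2723 of the 2728 changed genes. The collagen cross-linking oxidase Lox fell by 0.52 and the adhesion protein Tgfbi by 0.62 on the log2 scale. Of 24 collagen genes 0 rose and 16 fell, with a median of -0.33, a median exon length of 6430 bases, and 13 lowered with the length trend removed. Col1a1, the main chain of type I collagen, fell from 1129.5 and 1278 CPM to 857 and 809 CPM (-0.53, SE 0.06), Col5a1 by 0.57 and Col6a3 by 0.44.

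Genes that remodel and grip the matrix fell in part. Of 29 proteases and inhibitors 0 rose and 16 fell (median log2 fold change -0.34), among them Timp2, an inhibitor of metalloproteinases, at -0.60, the aggrecan-cutting Adamts5 at -0.49 and Adamts15 at -0.76. Adam11, a family member without protease activity, stood at 26.8 and 31.0 CPM against 13.0 and 13.4 CPM (-1.13, SE 0.09). Of 14 integrins 0 rose and 6 fell, with 3 lowered when the length trend was removed, 2 without the BML-260 library of replicate 2 and 3 without the DMSO library of replicate 1. Itga5, the fibronectin receptor chain, fell by 0.28, and the collagen receptor chain Itga11 stood at 4.19 and 5.48 CPM against 2.47 and 2.27 CPM (-1.04, SE 0.20). Mgp, an inhibitor of calcification in matrix, fell from 21.02 and 23.1 CPM to 9.93 and 11.4 CPM (-1.05, SE 0.12).

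Most contractile genes tested fell, and some genes of undifferentiated cells did. Of 26 actin cytoskeleton and SRF target genes 0 rose and 17 fell, with a median log2 fold change of -0.26. Acta2, the smooth muscle actin of mural cells and myofibroblasts, fell from 56.2 and 58.3 CPM to 30.6 and 35.4 CPM (-0.79, SE 0.07, adjusted p = 1.35e-08). Tagln fell from 22.1 and 20.8 CPM to 12.2 and 14.3 CPM (-0.69, SE 0.10), and the actin cross-linker Flna by 0.42. The 5 mural markers summed to 86.6 and 85.9 CPM with DMSO and to 47.7 and 54.7 CPM with BML-260. Of the 4 tested 3 fell and 0 rose. The 6 preadipocyte markers summed to 113 and 124 CPM against 94.3 and 90.0 CPM. Of the 5 tested only 2 fell, Pdgfrb and Dlk1, and 0 rose. Pdgfra stood at 26.2 and 27.8 CPM with DMSO and 27.5 and 24.9 CPM with BML-260. Of 13 tested preadipocyte and progenitor genes 6 fell and 0 rose (median -0.51), among them Dlk1, at 25.1 and 32.9 CPM against 17.1 and 16.5 CPM (-0.79, SE 0.13), Gsn at -0.58 and the growth factor receptor Pdgfrb at -0.35. Whether fewer such cells account for any of the matrix or contractile falls was not tested.

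Growth factor pathways that act on matrix-producing cells also fell in part. Of 37 TGF-beta and BMP genes 0 rose and 10 fell, among them Fstl1 at -0.44 and the receptor Tgfbr2 at -0.39. Of 31 Wnt genes 0 rose and 9 fell, with 5 lowered without the BML-260 library of replicate 2. The secreted Wnt modulator Sfrp2 stood at 11.7 and 11.97 CPM against 5.99 and 5.12 CPM (-1.10, SE 0.13), Apcdd1 at 9.26 and 11.6 CPM against 4.82 and 3.54 CPM (-1.33, SE 0.17), and the Wnt-induced Wisp1 had a log2 fold change of -0.72.

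Some genes of inflammation fell, a minority of each list. Of 23 acute phase and STAT3 target genes 0 rose and 10 fell, with a median log2 fold change of -0.19. Beside Hp and Orm1, Prtn3, a serine protease of myeloid granules, fell from 20.8 and 26.4 CPM to 7.87 and 12.7 CPM (-1.19, SE 0.15), Lrg1, a plasma glycoprotein, from 66.0 and 72.1 CPM to 40.7 and 50.6 CPM (-0.59, SE 0.08), and Cish, a STAT5-induced inhibitor of cytokine receptors, from 34.4 and 35.6 CPM to 20.6 and 19.95 CPM (-0.79, SE 0.11). Of the 5 macrophage and leukocyte markers none passed the test in either direction, 1 of them having been tested. Of 15 complement genes 0 rose and 5 fell. C3, the central component, fell from 934 and 955 CPM to 562 and 599 CPM (-0.70, SE 0.05, adjusted p = 2.29e-11), and C4b, which has a near-identical copy in the genome, from 9.37 and 9.93 CPM to 3.58 and 4.38 CPM (-1.27, SE 0.15). Of 19 chemokine and NF-kB genes 1 rose and 8 fell. Ccl2, which recruits monocytes, fell from 25.3 and 29.9 CPM to 13.6 and 14.2 CPM (-0.99, SE 0.09), Ccl7 by 0.62 and the interleukin 1 antagonist Il1rn by 0.71. Counts of lowered chemokine genes were 4 without either BML-260 library, 5 and 3 without the DMSO library of replicate 1 and of replicate 2, and 3 in DESeq2.

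Some cell cycle genes fell by small amounts: 0 of 51 rose and 23 fell, at a median log2 fold change of -0.15, and 14 fell without the BML-260 library of replicate 2 or without the DMSO library of replicate 2. Mki67, a marker of dividing cells, stood at 515 and 466 CPM against 418 and 396 CPM (-0.27, SE 0.05), the helicase subunit Mcm5 had -0.27 and Ccne1, cyclin E1, -0.37. Of 24 AP-1 and immediate early genes 2 rose and 8 fell, with 4 lowered without the DMSO library of replicate 2. Maff rose with Atf3, from 58.9 and 61.4 CPM to 73.2 and 72.1 CPM (0.27, SE 0.06). Egr1 fell from 170 and 174 CPM to 143 and 134 CPM (-0.31, SE 0.05), Egr2 by 0.68 and Ctgf, a target of SRF and YAP, by 0.41.

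Transcripts of the kinase and phosphatase families around the labelled target of BML-260 changed little. Dusp22 stood at 75.9 and 75.7 CPM with DMSO and 78.6 and 80.3 CPM with BML-260, a log2 fold change of 0.07 (SE 0.06, adjusted p = 0.468). Mapk8 and Mapk9, the JNK kinases, had log2 fold changes of 0.07 each (SE 0.08 and 0.06, adjusted p of 0.611 and 0.434), and both turned sign without the DMSO library of replicate 2. Of 23 genes of the JNK and p38 cascades 0 rose and 1, Map3k1, fell, from 130 and 127 CPM to 94.3 and 94.4 CPM (-0.45, SE 0.05, adjusted p = 5.00e-07). Of 23 dual-specificity phosphatases 1 rose and 1 fell, below the background share. They were Dusp18 (0.27, SE 0.07, adjusted p = 0.00620), which did not pass without the BML-260 library of replicate 1 or the DMSO library of replicate 2, and Dusp1 (-0.17, SE 0.06, adjusted p = 0.0406), which did not pass in 5 of 12 alternatives. RNA levels do not measure the activity of these enzymes.

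Genes of insulin and growth factor signalling leaned downwards, with 3 of 29 raised and 10 lowered, and 6 lowered without the BML-260 library of replicate 2 or without the DMSO library of replicate 2. Irs1, the main insulin receptor substrate, fell from 74.5 and 81.6 CPM to 54.0 and 52.3 CPM (log2 fold change -0.56, SE 0.06), Pik3r1, the regulatory subunit of PI3-kinase, from 182 and 172 CPM to 131 and 124 CPM (-0.48, SE 0.06) and Tbc1d4, which controls GLUT4 vesicles, by 0.27. Trib3, which rose, restrains AKT. Without the BML-260 library of replicate 1 the count raised was 1. Of 29 nuclear receptors 3 rose and 10 fell. Ppara and the clock repressor Nr1d2 rose, by 0.35 and 0.25, and the retinoid receptors Rara and Rxra fell, by 0.61 and 0.27. The lowered count was 6 in DESeq2 and without the BML-260 library of replicate 1, and 3 without the DMSO library of replicate 2.

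Further lists held smaller or mixed counts. Of 18 glucocorticoid targets 1 rose and 8 fell, with 4 lowered without the BML-260 library of replicate 1 or the DMSO library of replicate 2. Of 26 potassium and calcium channels 2 rose and 9 fell, with 5 lowered in DESeq2 and without the DMSO library of replicate 2. Of 32 interferon-stimulated and antigen presentation genes 0 rose and 5 fell, with 2 lowered in DESeq2 and without the BML-260 library of replicate 2, and 1 without that of replicate 1 or the DMSO library of replicate 2. Of 21 heat shock proteins 5 rose and 4 fell, with 3 raised without either BML-260 library and 1 without the DMSO library of replicate 2; 2 were lowered without the BML-260 library of replicate 1 and 1 without the DMSO library of replicate 2. Of 22 iron and heme genes 6 rose and 2 fell, of 22 clock genes 3 rose and 2 fell, of 16 peroxins 3 rose and 0 fell, and of 12 metallothionein and zinc transport genes 1 rose and 0 fell. The count of raised clock genes was 1 without the BML-260 library of replicate 1, without either DMSO library, in DESeq2 and with upper-quartile scaling. That of raised peroxins was 1 without either BML-260 library and without the DMSO library of replicate 2.

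Among genes of 1 to 10 CPM the 6 most raised were Sgk2, Otog, Mapt, Gsta3, Slc22a12 and Fgf21, and the 6 most lowered were Lep, Sox9, Comp, Fam222a, AK040640 and Adora2a. Sgk2, a kinase related to AKT, had 2 counts in each DMSO library and 16 and 23 in the BML-260 libraries, a fitted log2 fold change of 3.20 (SE 0.55, adjusted p = 1.44e-04) that rests on those few counts. Slc22a12, the urate transporter, stood at 1.98 and 2.09 CPM against 5.23 and 5.75 CPM (1.43, SE 0.22). Comp, a cartilage matrix protein, stood at 3.96 and 4.62 CPM against 1.29 and 1.69 CPM (-1.51, SE 0.23). Mapt, which encodes tau, rested on a single library: 0.582 and 0.644 CPM with DMSO, 0.764 and 3.22 CPM with BML-260, and a log2 fold change of 1.72 that became 0.32 without the BML-260 library of replicate 2. It also did not pass without either DMSO library. Sox9, a cartilage and progenitor factor (1.40 and 1.34 CPM against 0.646 and 0.317 CPM, log2 fold change -1.52), did not pass without the BML-260 library of replicate 2 (adjusted p = 0.15) or the DMSO library of replicate 2 (0.056), and Otog did not without the latter (0.060). Without that DMSO library AK040640 (-1.46) and Fam222a (-1.46) did not pass either (adjusted p of 0.16 and 0.29), nor did Fam222a without either BML-260 library (0.081 and 0.051).

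Most 1-day changes were found again at 3 days in separate libraries with their own DMSO controls. Of the 1417 genes raised at 1 day 897 (63.3%) were also raised at 3 days, where 17.3% of all genes were, and 28 were lowered. Of the 1311 lowered at 1 day 850 (64.8%) were lowered at 3 days, where 18.3% of all genes were, and 22 were raised. The effect itself differed between times for 1284 genes, 8.44% of those tested: among genes raised at 1 day the effect was larger at 3 days for 83 and smaller or turned for 103, and among those lowered it was larger for 128 and smaller or turned for 115. The count of 1284 was 659 without the DMSO library of replicate 2 at 1 day, 678 and 794 without the DMSO libraries of replicates 1 and 2 at 3 days, 760 without the BML-260 library of replicate 1 at 3 days, and 757 in DESeq2. Ucp1 had the same log2 fold change at both times, 1.32. The repression of Adrb3 grew, from -1.35 to -2.61, with 21.3 and 23.5 CPM against 3.40 and 3.93 CPM at 3 days (difference -1.26, SE 0.18, adjusted p = 8.18e-05). The rise of Atf3 also grew, from 0.80 to 1.67, with 7.73 and 6.96 CPM against 23.9 and 22.8 CPM at 3 days (difference 0.86, SE 0.16, adjusted p = 9.72e-04).

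Of 24 fat oxidation genes 9 had a lower effect at 3 days, against 4.51% of all genes. Among them were 8 of the 17 raised at 1 day, the largest such count of any list. The effect was smaller or turned for 103 of all 1417 genes raised at 1 day, and for 3 of 5 raised mature adipocyte genes. Choosing genes raised at 1 day favours shrinkage, since the difference uses the same 1-day libraries. Hadhb went from 0.45 at 1 day to 0.13 at 3 days and Decr1 from 0.41 to 0.05. Fabp4 went from 0.71 to 0.31 (difference -0.40, SE 0.06, adjusted p = 9.16e-05) and Ppara from 0.35 to -0.10 (difference -0.45, adjusted p = 1.84e-04). In the opposite sense 10 of 27 glycolysis genes and 7 of 37 integrated stress response genes had a higher effect at 3 days, against 3.93% of all genes. Several other lists had larger shares than the stress response list. Among them were 4 of 14 complex IV subunits, 6 of 22 fatty acid synthesis and desaturation genes, 5 of 21 heat shock proteins and 6 of 27 ER chaperone genes. A lower effect at 3 days was found for 14 of 24 mature adipocyte genes. Of those 14, 3 had been raised at 1 day, Fabp4 among them. Falls that deepened were those of Adipoq, from -0.35 to -1.06, and of Cfd, from -0.44 to -1.03. By the same limits of level and separate groups as for the 24 genes above, the largest higher differences were those of Lrp8, Ghrh, Pgp, Dusp8, Scand1 and Atf3, and the largest lower ones those of Adrb3, Prox1, C4b, Retn, Hcar2 and Gbp3. Of these 12, Lrp8, Ghrh, Pgp, Dusp8, Hcar2 and Gbp3 had not passed the test at 1 day, with log2 fold changes between -0.31 and 0.59. Prox1 and Scand1 passed at 1 day (-0.35 and -0.46), but not without the BML-260 library of replicate 1 (-0.25 and -0.30) or the DMSO library of replicate 2 (-0.33 and -0.42); Prox1 also did not without the DMSO library of replicate 1 (-0.36) or in DESeq2 (-0.34).

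**Figure D5:**
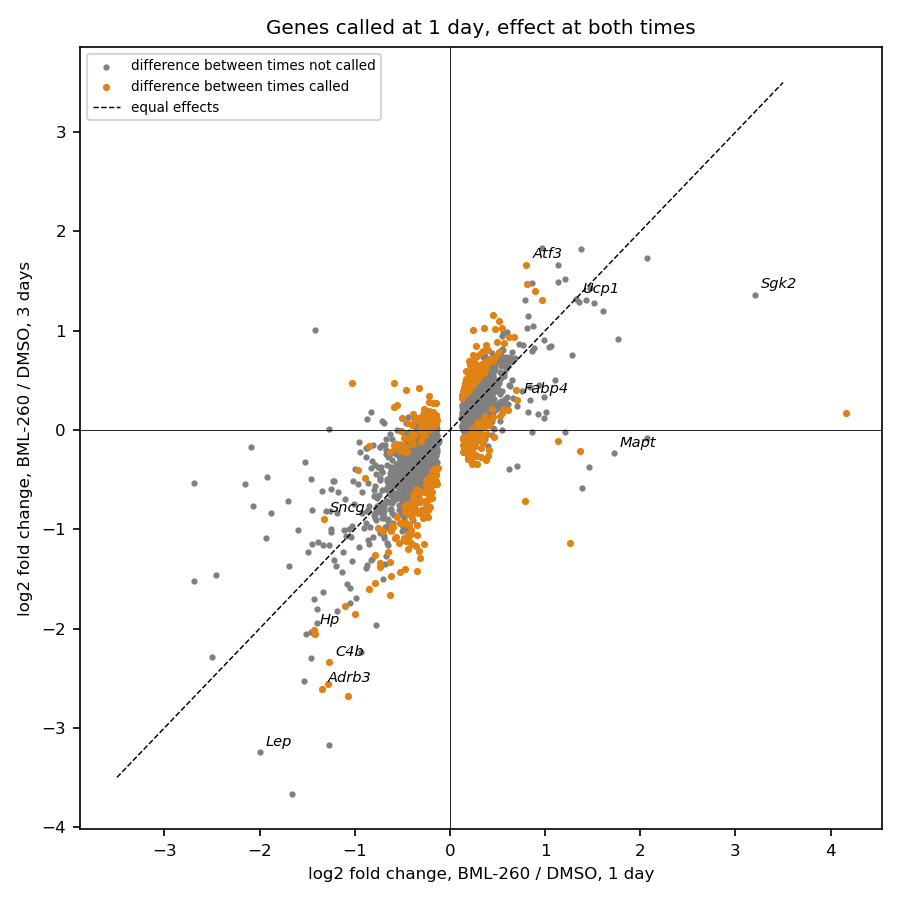
For the 2728 genes changed at 1 day, the log2 fold change of BML-260 over DMSO at 1 day (x axis) and at 3 days (y axis); orange points differ between times by the test of the difference, and the dashed line marks equal effects. Most points lie in the lower left and upper right, Adrb3 and Atf3 lie farther from 0 at 3 days, and Fabp4 lies nearer to 0.

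Compared directly with ISO at 1 day, BML-260 left many genes at a different level: 6752 genes, 44.4% of those tested, differed, 3288 higher and 3464 lower with BML-260. Ucp1 was lower with BML-260 than with ISO, at 15.3 and 12.6 CPM against 26.1 and 23.5 CPM (log2 difference -0.83, SE 0.10, adjusted p = 1.67e-07). Elovl3 was higher, at 33.1 and 28.0 CPM against 11.7 and 10.8 CPM (1.45, SE 0.11). Among genes of at least 10 CPM with separate groups, predicted loci passed over, the largest higher differences were those of Lrrc39, Gsta4, Elovl3, Osgin1, Nabp1 and Gpd1, from 1.54 to 1.33, and the largest lower ones those of Itga11, Nr1d1, Prg4, Adamts2, Sncg and Col3a1, from -2.59 to -2.02. Nr1d1, a clock repressor, stood at 4.41 and 5.86 CPM with BML-260 and at 22.3 and 26.3 CPM with ISO. Matrix genes were lower with BML-260 for 39 of 44 glycoprotein and 22 of 24 collagen genes, against 22.8% of all genes. Fn1 stood at 726 and 671 CPM with BML-260 against 1987 and 1899 CPM with ISO. Such differences hold effects of both compounds. Against DMSO at 1 day, ISO raised Fn1 by 0.71 on the log2 scale, while BML-260 lowered it by 0.77. How many genes of these lists ISO moved was not counted. All 36 complex I subunits and 64 of 75 mitochondrial ribosome genes were higher with BML-260, against 21.6% of all genes. For Adrb3 the difference did not pass the test, with 7.34 and 8.18 CPM against 7.24 and 6.30 CPM (log2 difference 0.21, SE 0.14, adjusted p = 0.220).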

How the data were processed

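Total RNA of brown adipocytes was sequenced in 10 libraries, 2 in each of 5 groups, and the authors deposited a table of raw counts per gene symbol. Reads were processed with tools that the submitters' processing notes give as TopHat2 2.1.1, DESeq2, bedtools and bcl2fastq 2.17.1.14; the notes list mm10 and mm9 as builds, with no role for either. No source read here states the counting rule, annotation or strand setting. The authors' deposited table for the comparison at 1 day gives log2 fold changes and p-values of the genes it lists, and was only set beside the results here.

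Counts were fitted with edgeR 4.0.16 in R 4.3.3, as 1 mean per group over all 10 libraries, with TMM scaling, filterByExpr (minimum count 10, minimum total 15), the quasi-likelihood test and Benjamini-Hochberg adjustment over 15212 genes (two-sided, threshold 0.05, 5 residual degrees of freedom). CPM used TMM-scaled library sizes, and SE is the absolute log2 fold change over the square root of F. The script was tested on simulated data. Alternatives were DESeq2 1.42.0, other scalings and filters, the compared groups alone, a replicate block, each library left out and a length trend removed. Length and coordinates came from GENCODE M21 and promoters from RefSeq on GRCm38.p6, matched by symbol; 13725 tested genes (90.2%) had a length.

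The comparison, the 59 gene lists and the named genes were chosen with earlier results of these data known. Named genes were the 12 raised and 12 lowered of largest change at 10 CPM or more with separate groups, predicted loci passed over; the 10 of smallest p; the 10 most abundant with a change of at least 0.5; 6 each way at 1 to 10 CPM; up to 5 of smallest p per list; 6 each way for the difference between times and against ISO; and a few set genes. Gclm, Pparg and genes named for a promoter pattern fall outside this rule and were chosen after their values were seen. A result on 1 further gene is not reported here.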

Additional observations from a re-analysis of the deposited data

Results flagged for a closer look

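For 69 of the 207 tested genes named above, the effect of BML-260 at 3 days differed from that at 1 day in edgeR's quasi-likelihood test of the difference, at an adjusted p under 0.05 with Benjamini-Hochberg adjustment over all 15212 genes tested. Values are log2 fold changes at 3 days minus those at 1 day, from 2 libraries in each of 4 groups, and some genes were named because of this difference.

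Among genes raised at 1 day, a positive value is a larger rise at 3 days. Positive values were Atf3 0.86, Ndrg1 0.71, Extl1 0.67, Sqle 0.54, Acox2 0.51, Lss 0.40 and Hspa5 0.40. Next in size were Cbr3 0.34, Gpi1 0.33, Hmox1 0.31, Gadd45a 0.31, Fth1 0.27, Stbd1 0.26 and Nupr1 0.26. These were followed by Sqstm1 0.24, Iars 0.23 and Lonp1 0.21. Negative values were Ppara -0.45, Fabp4 -0.40, Gm13910 -0.38, Decr1 -0.35, Hadhb -0.32, 4931406C07Rik -0.29 and Eci1 -0.25.

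Among genes lowered at 1 day, a negative value is a deeper fall at 3 days. The deepest were Adrb3 -1.26, Prox1 -1.08, C4b -1.07, Retn -1.03, Rgs2 -0.98, Ccl2 -0.86 and Cish -0.75. Next in size were Adipoq -0.71, Acvr1c -0.71, Rasd1 -0.67, Ctgf -0.64, Mb -0.63, Gm13341 -0.61 and Cfd -0.59. These were followed by Hp -0.59, mt-Co3 -0.54, Acta2 -0.46, Cebpa -0.44, Plin4 -0.42, Pnpla3 -0.42 and Ccl7 -0.40. Smaller differences were Tgfbr2 -0.32, Kcnk3 -0.32, C3 -0.32, Dusp1 -0.32, Pparg -0.31, Egr1 -0.31, Ebf1 -0.26 and Fbn1 -0.24. Positive values, a shallower fall or a turn, were Scand1 0.87, Tle3 0.50, Sncg 0.43, Hspg2 0.43, Col1a1 0.36 and Fasn 0.24.

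Other genes had not passed the test at 1 day. Their differences were Lrp8 1.16, Hcar2 -1.02, Gbp3 -1.0, Ghrh 0.98, Pgp 0.97, Dusp8 0.91 and Nabp1 -0.77. Next in size were Syvn1 0.42, Gpd1 -0.32 and Ppargc1a -0.29.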

How the results depend on the processing

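The number of genes changed at 1 day ranged from 1235 to 2384 when 1 library was left out, the number raised from 608 to 1257 and the number lowered from 627 to 1127; DESeq2 called 813 lowered. The number whose effect differed between 3 days and 1 day ranged from 659 to 1163, with 757 in DESeq2. The number that differed between BML-260 and ISO ranged from 5221 to 5948. Raised genes made up 51.9% of those changed, 46.1% with upper-quartile scaling and 55.8% in DESeq2. A left-out library leaves its group with 1 library, which is then assumed to vary like the other groups.

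Of 185 named genes called at 1 day, 167 kept their call and direction in each alternative that could test them, 18 lost the call in at least 1 of 12 alternatives and 0 turned sign. Genes not called did turn. Ppargc1a was -0.001426 with upper-quartile scaling and ranged from -0.005774 to 0.03536 with 1 library left out. Syvn1 was 0.009733 with the length trend removed and ranged from -0.0924 to 0.08685. The ranges were -0.06099 to 0.1573 for Creld2, -0.03881 to 0.1754 for Mapk8, -0.01315 to 0.154 for Mapk9, -0.3302 to 0.0732 for Lrp8 and -0.2848 to 0.1204 for Nr1d1. The cause was not tested. Pgp, not called, passed in 6 alternatives, among them without the BML-260 library of replicate 2 (-0.59).

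Replicate numbers are shared between groups, but deviations of same-numbered BML-260 and DMSO libraries at 1 day correlated at 0.025 (-0.034 to 0.058 over 10 pairs of groups), so the numbers were not taken as a pairing. With the replicate number as a block, 2898 genes changed at 1 day, 1520 raised and 1378 lowered, 1474 differed between times and 6869 differed from ISO. With 2 libraries per group and a coefficient of variation of 3.39%, small changes of abundant genes pass the test, while genes with few counts are limited by depth.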
